A study of Mus musculus with 18 samples.

Results

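The plasminogen activator and serpin genes followed here are Plau (urokinase), Plat (tissue plasminogen activator), Plaur (the urokinase receptor), Serpine2, Serpinb2, Serpinb6a and Serpinb6b. They were chosen by gene symbol, with earlier results from the same 18 arrays known, and each gene was read from the row annotated to that symbol alone. Of these 7 genes, 6 had such a row, and each of the 6 had exactly 1, so the step of taking the brightest row chose nothing. Serpine2 was not analysed here. The 6 genes were tested among 19938 genes, and because of how they were selected, their counts, changes and adjusted p-values describe these arrays and are no independent evidence.

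Plasminogen activators cleave plasminogen to plasmin, a broad protease that degrades fibrin and pericellular matrix. Urokinase does so largely at the cell surface, bound to its receptor, whereas tissue plasminogen activator acts mainly on fibrin, and serpins block proteases by trapping them in a covalent complex. In skeletal muscle this system is known for its part in myoblast migration, fusion and regeneration. Serpinb2 (plasminogen activator inhibitor 2) inhibits urokinase, and Serpinb6a and Serpinb6b belong to the same clade B of mostly intracellular serpins.

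All samples were C2C12 mouse myoblasts, an established line that forms myotubes in low serum, in which endogenous TAF3 had been knocked down with stable retroviral short hairpins. TAF3 is a subunit of the basal transcription factor TFIID whose PHD finger binds trimethylated lysine 4 of histone H3. The cells were rescued with murine wild-type TAF3 (WT-TAF3) or with KK-TAF3, a mutant that no longer binds phosphoinositides. PIP4K2B, a lipid kinase that uses PI5P, was then depleted with a lentiviral hairpin (sh-PIP4K2B) or left undepleted, in WT-TAF3 cells only (the study's methods describe a control hairpin, which the labels of the undepleted arrays do not name). No KK-TAF3 group without depletion was analysed here, so KK-TAF3 was compared with WT-TAF3 in depleted cells. Each of the 3 genotypes (WT-TAF3, WT-TAF3 sh-PIP4K2B and KK-TAF3 sh-PIP4K2B) was either differentiated for 2 days, as the sample labels give it (the design text of the series gives 3), in Hams F12 with 2% horse serum, or treated for 7 h with 10 µM etoposide, a topoisomerase II poison that breaks DNA. The 6 groups held 3 arrays each. The cells were transduced populations of 1 line, and the rescue constructs were expressed from a retroviral vector, not from the Taf3 locus.

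Promoters are shown first for Plaur, Serpinb2 and Serpinb6a, the 3 genes that rose after etoposide in all 3 genotypes. That of Serpinb6b is shown beside them, a close relative of Serpinb6a whose change after etoposide had the opposite sign in depleted cells. RefSeq promoters (GRCm38.p6) were at hand for 5 of the 7 genes, and the 250 bases before the start are printed 5′ to 3′ on the strand of the gene. Capitals mark each AP-1 motif (TGANTCA), each motif of the TATA box (TATAAA) and each GC box (GGGCGG, or its reverse complement).
Plaur, chr7:24462233-24462482, plus strand: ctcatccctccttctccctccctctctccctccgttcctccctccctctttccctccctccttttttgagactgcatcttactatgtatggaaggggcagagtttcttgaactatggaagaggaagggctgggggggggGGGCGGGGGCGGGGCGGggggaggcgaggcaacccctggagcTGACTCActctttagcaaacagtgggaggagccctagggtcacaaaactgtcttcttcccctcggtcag
Serpinb2, chr1:107511173-107511422, plus strand: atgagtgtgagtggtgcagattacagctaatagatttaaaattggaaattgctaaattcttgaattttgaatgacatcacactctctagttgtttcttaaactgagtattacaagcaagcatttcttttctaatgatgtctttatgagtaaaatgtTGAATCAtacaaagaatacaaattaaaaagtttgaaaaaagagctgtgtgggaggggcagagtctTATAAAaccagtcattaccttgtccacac
Serpinb6a, chr13:34002795-34003044, minus strand: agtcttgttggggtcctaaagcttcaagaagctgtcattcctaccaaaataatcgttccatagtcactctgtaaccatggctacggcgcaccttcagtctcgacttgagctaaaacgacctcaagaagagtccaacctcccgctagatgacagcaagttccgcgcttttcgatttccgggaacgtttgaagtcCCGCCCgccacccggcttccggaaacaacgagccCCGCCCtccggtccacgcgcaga
Serpinb6b, chr13:32965011-32965260, plus strand: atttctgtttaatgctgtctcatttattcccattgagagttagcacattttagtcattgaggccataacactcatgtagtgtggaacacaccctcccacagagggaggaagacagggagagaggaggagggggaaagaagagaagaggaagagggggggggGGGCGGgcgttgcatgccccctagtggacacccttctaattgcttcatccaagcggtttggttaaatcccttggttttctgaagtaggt

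Plaur and Serpinb2 each held 1 AP-1 motif, 69 to 63 bases before the start in Plaur and 94 to 88 bases before it in Serpinb2. No window of Serpinb6a, which also rose after etoposide, or of Serpinb6b held this motif. Of all 32851 promoters of that length in the table, 6.75% held one on either strand. The Serpinb2 window also held a TATA box 29 to 24 bases before the start, a motif found in 12.4% of promoters. Plaur held 3 overlapping or adjoining GC boxes, the printed Serpinb6a window held 2 and Serpinb6b held 1, against 32.7% of promoters with at least 1. Other motifs searched on both strands were the CRE (TGACGTCA, 1.55% of promoters), the E-box (CANNTG, 66.2%) and an NF-kappaB motif (GGG and CC with any 5 bases between them, 45.8%). None of the 4 printed windows held a CRE or an E-box, and Plaur held the NF-kappaB motif at 2 overlapping places, 1 on each strand. A second RefSeq start of Serpinb2 gave an overlapping window with the same AP-1 motif and TATA box, and a second start of Serpinb6a gave a window with 2 E-boxes. These matches describe letters in a window and not bound sites.

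Values are log2 signals as deposited, so 1 unit is a doubling, and signals of different genes cannot be set against each other. A gene was called changed when its change passed 1.4-fold with a Benjamini-Hochberg adjusted p under 0.05 over all 19938 genes in limma, with the 18 arrays in 1 fit. Arrays of a group correlated at 0.990 to 0.997 over all rows, and the SD between arrays of a group had a median over genes of 0.069 to 0.073 in differentiated cells and 0.095 to 0.137 in etoposide-treated cells, highest in WT-TAF3 sh-PIP4K2B. Pip4k2b signal fell with depletion, by 1.14 in differentiated and by 0.88 in etoposide-treated WT-TAF3 cells (adjusted p = 1.78e-06 and 3.68e-05, limma). It was 0.31 higher in KK-TAF3 than in WT-TAF3 depleted cells after differentiation (adjusted p = 0.255), with no overlap between arrays. Taf3 signal was 8.58 to 8.86 on all arrays and passed the threshold in no comparison, and it cannot tell the rescue constructs apart. Between KK-TAF3 and WT-TAF3 depleted cells it differed by -0.17 after differentiation (adjusted p = 0.456, limma) and by -0.13 after etoposide (adjusted p = 0.368). The arrays did not overlap in either treatment. The mean log2 signal over the 10 skeletal muscle markers was 9.60 to 10.30. Single markers lay lower, with group means of 6.25 to 7.29 for Myh3. Myog lay at 6.77 to 6.93 in differentiated KK-TAF3 sh-PIP4K2B cells and in every etoposide group. The mean over the markers of macrophages and monocytes (8 genes, 6.67 to 6.91), endothelium (6 genes, 6.62 to 7.03) and keratinocytes (6 genes, 6.66 to 7.12) lay below the median signal of the arrays (7.25 to 7.46), although single markers such as Cd14, Vwf and Krt14 lay above it. The 6 fibroblast markers, which include matrix genes that myoblasts also express, lay at 9.17 to 10.77.

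**Figure D1:**
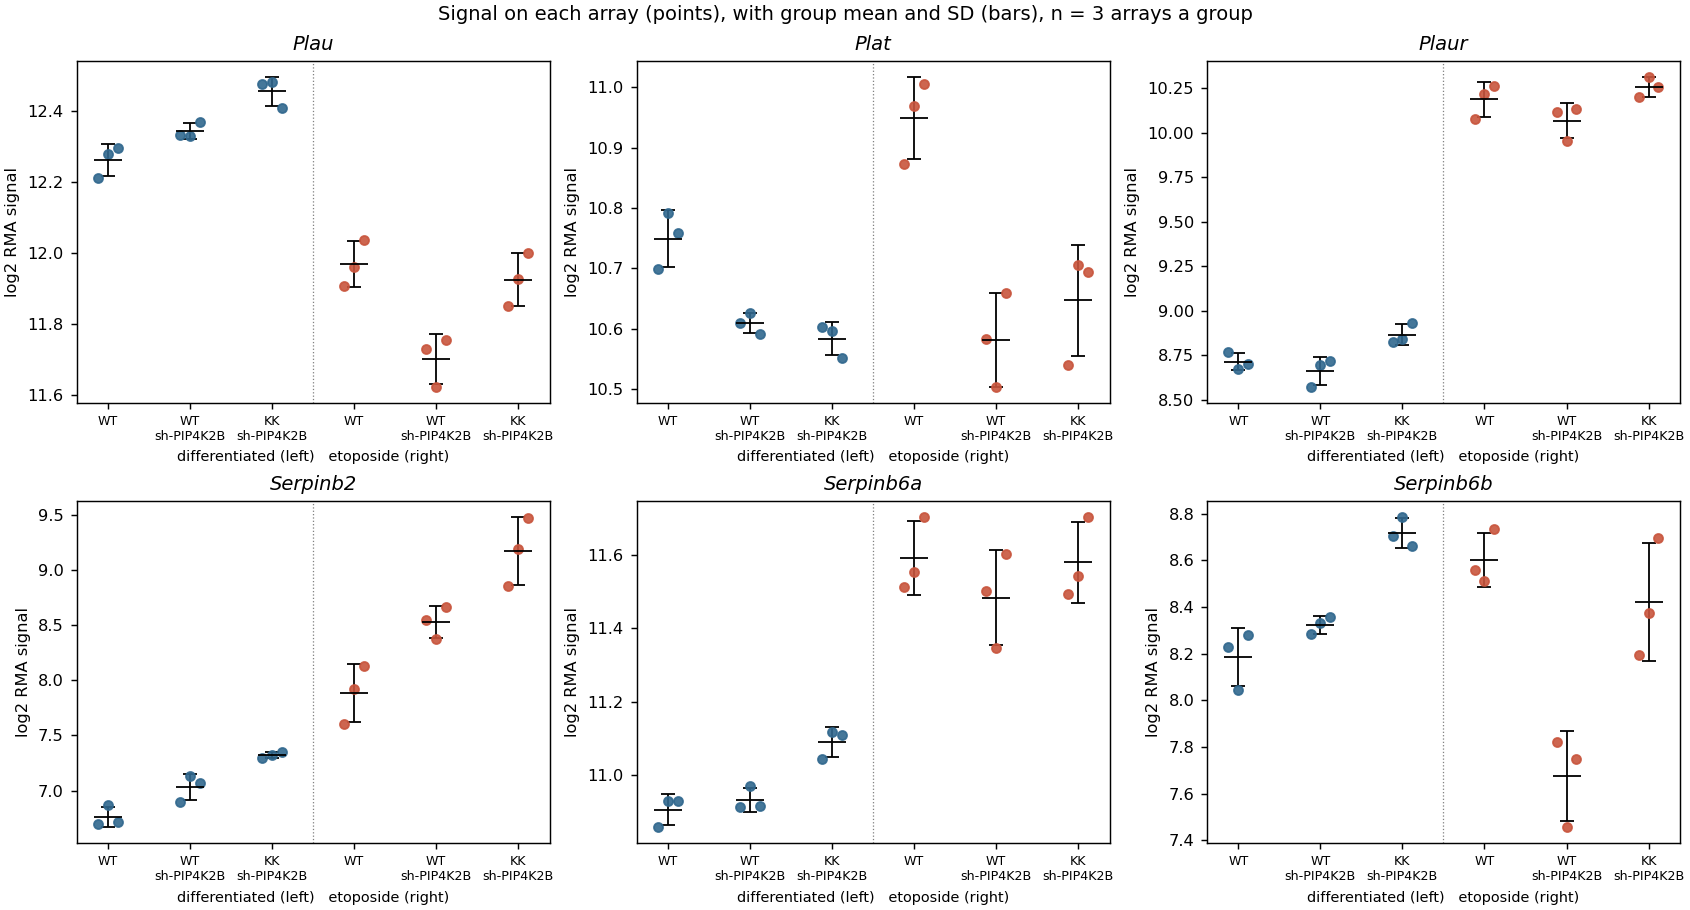
Log2 RMA signal (y axis, scaled to each gene) of 6 genes in the 6 groups (x axis), with a point for each array, a bar for the group mean and its SD, blue for differentiated and red for etoposide-treated cells. Plaur, Serpinb2 and Serpinb6a are higher on every etoposide array than on any differentiated array, and Serpinb6b is lowest in etoposide-treated WT-TAF3 sh-PIP4K2B cells.

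Serpinb2 had the widest range of the 6 genes, from 6.70 to 9.47, and no 2 of its 6 groups overlapped. In differentiated cells it read 6.70, 6.87 and 6.71 on the WT-TAF3 arrays, 6.90, 7.13 and 7.07 on the WT-TAF3 sh-PIP4K2B arrays and 7.30, 7.32 and 7.35 on the KK-TAF3 sh-PIP4K2B arrays. After etoposide the same genotypes read 7.60, 7.92 and 8.12, then 8.55, 8.38 and 8.67, and then 8.85, 9.19 and 9.47. Its lowest values lay below the median signal of the arrays, and no detection calls were used here. Within either treatment the signal was lowest in undepleted WT-TAF3 cells, intermediate in depleted WT-TAF3 cells and highest in depleted KK-TAF3 cells.

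The steps of Serpinb2 passed the threshold only after etoposide. Depletion raised it by 0.65 (SE 0.13, 1.57-fold, adjusted p = 0.0094, limma) in etoposide-treated WT-TAF3 cells, and KK-TAF3 raised it by a further 0.64 (SE 0.13, 1.56-fold, adjusted p = 0.026). In differentiated cells these differences were 0.27 (95% limits -0.01 to 0.56, adjusted p = 0.194) and 0.29 (0.01 to 0.57, adjusted p = 0.670). The effect of depletion after etoposide exceeded that after differentiation by 0.38 (95% limits -0.02 to 0.78, adjusted p = 0.176), and that of KK-TAF3 did so by 0.35 (-0.05 to 0.75, adjusted p = 0.772), so neither effect was shown to differ between treatments. Both steps share the WT-TAF3 sh-PIP4K2B arrays. Over both steps together, KK-TAF3 sh-PIP4K2B cells stood 1.29 above undepleted WT-TAF3 cells after etoposide (SE 0.13, 2.45-fold, adjusted p = 1.57e-05), the largest absolute change but 2 among all genes, and 0.56 above them after differentiation (1.48-fold, adjusted p = 0.018).

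Single arrays decided some of these calls. The depletion call after etoposide was lost without WT-TAF3 array 1 (change 0.51, adjusted p = 0.067) or without WT-TAF3 sh-PIP4K2B array 3 (0.58, adjusted p = 0.057). The KK-TAF3 call after etoposide was lost without WT-TAF3 sh-PIP4K2B array 2 (0.57, adjusted p = 0.197), KK-TAF3 array 2 (0.63, adjusted p = 0.096) or KK-TAF3 array 3 (0.49, adjusted p = 0.135). The call between KK-TAF3 sh-PIP4K2B and undepleted WT-TAF3 cells after differentiation was lost without KK-TAF3 array 1, KK-TAF3 array 2 or WT-TAF3 array 1 (0.58, 0.57 and 0.53, with adjusted p = 0.057, 0.063 and 0.083), and with the array median as a covariate (0.61, adjusted p = 0.071). Fitting only the groups compared, which leaves fewer arrays to estimate the spread, took both etoposide calls past the p limit (adjusted p = 0.062 for depletion and 0.216 for KK-TAF3), and testing every row did so for KK-TAF3 (adjusted p = 0.085). The change of 1.29 between KK-TAF3 sh-PIP4K2B and undepleted WT-TAF3 cells after etoposide stayed past the threshold without any single array.

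Serpinb6b moved the opposite way to Serpinb2 with depletion after etoposide, and the same way with KK-TAF3. In differentiated cells it read 8.23, 8.04 and 8.28 in WT-TAF3, 8.28, 8.33 and 8.36 in WT-TAF3 sh-PIP4K2B and 8.70, 8.79 and 8.66 in KK-TAF3 sh-PIP4K2B cells. After etoposide it read 8.56, 8.51 and 8.73 in WT-TAF3, 7.82, 7.46 and 7.75 in WT-TAF3 sh-PIP4K2B and 8.20, 8.37 and 8.70 in KK-TAF3 sh-PIP4K2B cells. The 3 depleted WT-TAF3 arrays after etoposide lay below all 15 other arrays, whereas the KK-TAF3 and undepleted WT-TAF3 arrays overlapped.

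Depletion lowered Serpinb6b in etoposide-treated WT-TAF3 cells by 0.93 (SE 0.11, 1.90-fold, adjusted p = 7.57e-05, limma), and it stood 0.75 higher with KK-TAF3 (SE 0.11, 1.68-fold, adjusted p = 0.0018). Both differences share the WT-TAF3 sh-PIP4K2B arrays, so a deviation of that group would move them in opposite directions. Between KK-TAF3 sh-PIP4K2B and undepleted WT-TAF3 cells the difference was -0.18 (95% limits -0.42 to 0.06, adjusted p = 0.632). In differentiated cells depletion gave a difference of 0.14 (95% limits -0.10 to 0.38, adjusted p = 0.426), and the effect of depletion differed between treatments by -1.07 (SE 0.16, adjusted p = 0.0013). KK-TAF3 sh-PIP4K2B cells after differentiation stood 0.39 above WT-TAF3 sh-PIP4K2B cells (95% limits 0.16 to 0.63, adjusted p = 0.156) and 0.53 above undepleted WT-TAF3 cells (1.45-fold, adjusted p = 0.0094). The last of these calls was lost without undepleted WT-TAF3 array 2 (0.46, adjusted p = 0.059), with the array median as a covariate (0.48, adjusted p = 0.089) and, by the fold limit, with quantile normalisation within each treatment (0.48). The depletion, KK-TAF3 and interaction calls held without any single array, but the KK-TAF3 call after etoposide was lost when only the 2 groups were fitted (adjusted p = 0.089).

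Cell type marker values in the same comparisons as these 2 serpins are given here, and their part in the result was not tested. The 10 muscle markers had a mean log2 signal of 9.95 to 10.00, 10.29 to 10.30 and 9.74 to 9.79 in differentiated WT-TAF3, WT-TAF3 sh-PIP4K2B and KK-TAF3 sh-PIP4K2B cells, Tnnt3 was higher with depletion and 5 of the 10 were lower with KK-TAF3 there (1.06% and 0.517% of all genes were called in these comparisons). After etoposide they lay at 9.76 to 9.78, 9.64 to 9.75 and 9.60 to 9.65, with none past the threshold for depletion or KK-TAF3. Of the 6 fibroblast markers, Lum was lower with depletion after differentiation, Dcn and Lum were lower with depletion after etoposide and Dcn was higher with KK-TAF3, the mean over the list being 9.56 to 9.76, 9.19 to 9.31 and 9.17 to 9.46. Krt14, 1 of the 6 keratinocyte markers, was higher with depletion after differentiation and lower with KK-TAF3 after etoposide, and of the macrophage and endothelial markers none passed the threshold for depletion or KK-TAF3.

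**Figure D2:**
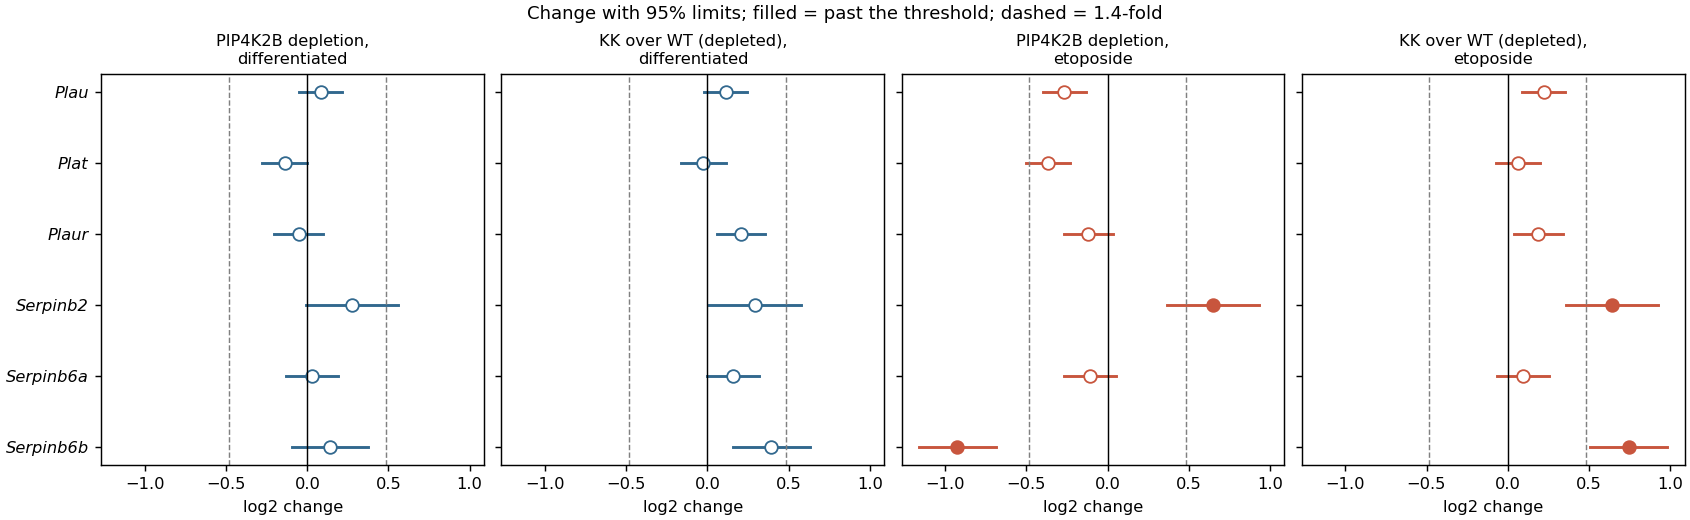
Log2 change (x axis) of the 6 genes (y axis) with PIP4K2B depletion in WT-TAF3 cells and with KK-TAF3 over WT-TAF3 in depleted cells, for differentiated (blue) and etoposide-treated cells (red). Lines are 95% limits, filled points passed the threshold and dashed lines mark 1.4-fold. After etoposide Serpinb2 lies at 0.65 and 0.64 in both comparisons, while Serpinb6b lies at -0.93 with depletion and at 0.75 with KK-TAF3.

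The activators changed by less than 1.4-fold with genotype. Plau, which encodes urokinase, read 12.21, 12.28 and 12.30 in differentiated WT-TAF3, 12.33, 12.33 and 12.37 in WT-TAF3 sh-PIP4K2B and 12.48, 12.48 and 12.41 in KK-TAF3 sh-PIP4K2B cells. After etoposide it read 11.91, 11.96 and 12.04, then 11.73, 11.62 and 11.76, and then 11.85, 11.93 and 12. The depleted WT-TAF3 arrays after etoposide were again the lowest of all 18, and the other 2 genotypes overlapped.

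For Plau the difference with depletion after etoposide was -0.27 (SE 0.06, 1.20-fold, adjusted p = 0.024, limma), which met the p limit and not the fold limit, and with KK-TAF3 it was 0.22 (SE 0.06, adjusted p = 0.124). The effect of depletion differed between treatments by -0.35 (SE 0.09, adjusted p = 0.034), also below 1.4-fold. Plau therefore had the same order of groups after etoposide as Serpinb6b, at a smaller size.

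Plat, the tissue-type activator, read 10.70, 10.79 and 10.76 in differentiated WT-TAF3 cells and 10.87, 10.97 and 11.00 after etoposide. All 12 arrays of depleted cells lay lower within their treatment. They read 10.59 to 10.63 (WT-TAF3) and 10.55 to 10.60 (KK-TAF3) in differentiated cells, and 10.50 to 10.66 and 10.54 to 10.71 after etoposide.

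Depletion gave a Plat difference of -0.37 after etoposide (SE 0.07, 1.29-fold, adjusted p = 0.0030, limma) and of -0.14 after differentiation (SE 0.07, adjusted p = 0.171). With KK-TAF3 in place of WT-TAF3 the differences were 0.06 (95% limits -0.07 to 0.20) and -0.03 (-0.16 to 0.11), and KK-TAF3 sh-PIP4K2B cells stood 0.30 below undepleted WT-TAF3 cells after etoposide (adjusted p = 0.012). All of these lay under the fold limit. The effect of depletion differed between treatments by -0.23 (95% limits -0.42 to -0.03, adjusted p = 0.107).

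Plaur, the receptor that holds urokinase at the cell surface, read 8.57 to 8.76 in differentiated WT-TAF3 cells with or without depletion, which overlapped, and 8.82 to 8.93 in KK-TAF3 sh-PIP4K2B cells. It read 9.96 to 10.32 on the 9 etoposide arrays. None of its genotype differences passed the threshold, the largest being 0.21 for KK-TAF3 after differentiation (95% limits 0.06 to 0.36, adjusted p = 0.333). Serpinb6a, an intracellular inhibitor of trypsin-like proteases, read 10.86 to 11.12 in differentiated and 11.35 to 11.70 in etoposide-treated cells. Its largest genotype difference was 0.18, between KK-TAF3 sh-PIP4K2B and undepleted WT-TAF3 cells after differentiation (95% limits 0.02 to 0.34, adjusted p = 0.120).

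Counted over the 6 genes, depletion changed 0 after differentiation, where 1.06% of all genes were called. KK-TAF3 against WT-TAF3 also changed 0 there, against 0.517% of all genes. At an unadjusted p under 0.05 and no fold limit these counts were 1 (Plat) and 3 (Plaur, Serpinb2 and Serpinb6b), with 0 past the fold limit. After etoposide, depletion changed 2 of the 6, Serpinb2 and Serpinb6b in opposite directions, against 0.868% of all genes, and KK-TAF3 raised the same 2, against 0.406%. Between KK-TAF3 sh-PIP4K2B and undepleted WT-TAF3 cells 2 were higher after differentiation (1.26% of all genes) and 1 after etoposide (1.15%). The effect of depletion depended on treatment for 1 of the 6 (4.02% of all genes). The effect of KK-TAF3 did so for 0 (0.15% of all genes), with 1 gene, Serpinb6b, at an unadjusted p under 0.05. Since the genes were selected with these contrasts known, nothing is read from the gap between their shares and those of all genes.

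Etoposide-treated cells differed from differentiated cells in the drug, and also in medium, serum and time in culture, which cannot be told apart here. In all 3 genotypes Plaur, Serpinb2 and Serpinb6a were higher after etoposide. Plaur rose by 1.47, 1.41 and 1.39 in WT-TAF3, WT-TAF3 sh-PIP4K2B and KK-TAF3 sh-PIP4K2B cells (SE 0.07 each, 2.78-, 2.66- and 2.62-fold, adjusted p of at most 7.97e-11, limma), the steadiest of the changes. Serpinb2 rose by 1.12, 1.50 and 1.85 (SE 0.13 each, 2.18-, 2.82- and 3.60-fold, adjusted p of at most 4.74e-06). Serpinb6a rose by 0.68, 0.55 and 0.49 (SE 0.08 each, adjusted p of at most 9.16e-05), the last of these just past the 1.4-fold limit.

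Plau was lower after etoposide, with differences of -0.29, -0.64 and -0.53 (SE 0.06 each), the first short of the fold limit and the other 2 past it (adjusted p = 3.75e-07 and 4.39e-06, limma). Serpinb6b went both ways, with 0.42 in WT-TAF3 cells (adjusted p = 0.011, below 1.4-fold), -0.65 in WT-TAF3 sh-PIP4K2B cells (1.57-fold, adjusted p = 0.00022) and -0.30 in KK-TAF3 sh-PIP4K2B cells (adjusted p = 0.064). Plat differed by 0.20 in WT-TAF3 cells (adjusted p = 0.034, below 1.4-fold) and by -0.03 and 0.06 in the depleted cells. In all, 3, 5 and 4 of the 6 genes passed the threshold in the 3 genotypes, against 7.63%, 9.95% and 8.33% of all genes. Centring each array on its median took the Serpinb6a rise below 1.4-fold in both depleted genotypes (0.47 and 0.42), and so did leaving out KK-TAF3 differentiated array 1 (0.46) or KK-TAF3 etoposide array 3 (0.43) in KK-TAF3 cells. The direction of every called change stayed the same under the scalings tried.

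**Figure D3:**
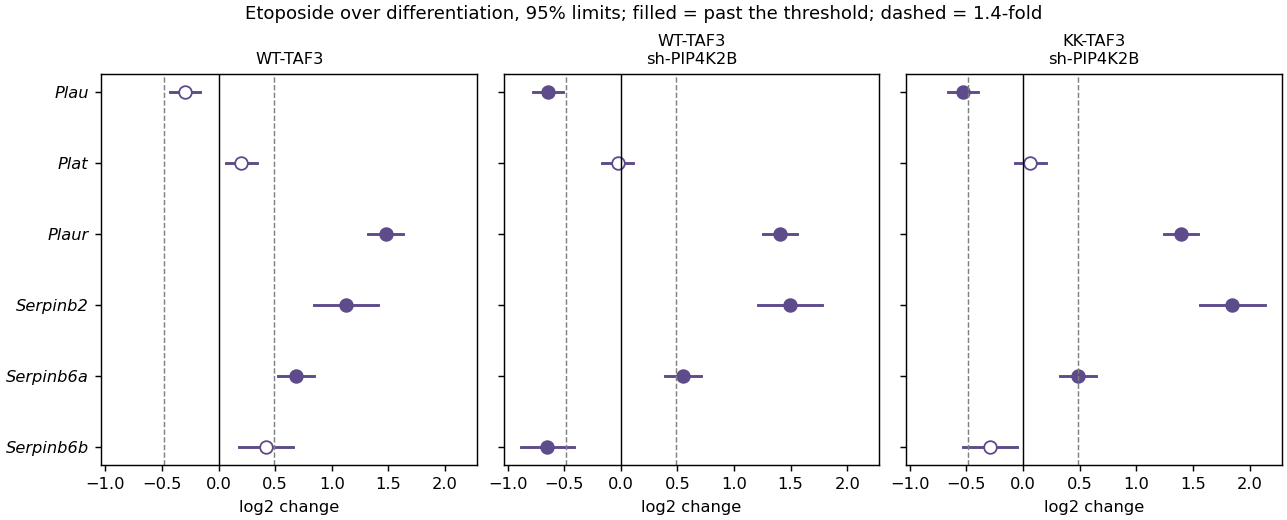
Log2 change of the 6 genes (y axis) from differentiated to etoposide-treated cells (x axis) in the 3 genotypes, with 95% limits, filled points past the threshold and dashed lines at 1.4-fold. Plaur lies at 1.39 to 1.47 in all 3 panels, Serpinb2 lies at 1.12 to 1.85, and Serpinb6b lies above 0 in WT-TAF3 and below 0 in both depleted genotypes.

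Likeness over the 18 arrays was taken as Pearson's r after subtracting the mean of each treatment, with no test, since arrays of a group share their genotype. Plau and Serpinb6b had r = 0.96 with each other. Genes were compared if their group means, centred in the same way, had an SD of at least 0.2, and predicted genes were left out. Plau (0.11), Plat (0.14), Plaur (0.09) and Serpinb6a (0.07) lay below that limit themselves, so their r values rest on small differences. The 3 most alike of the genes that varied between groups (534 were compared with Plau) were Pdk1 (0.96), Serpinb6b (0.96) and Pfn2 (0.92) for Plau, and Pdk1 (0.93), Pfn2 (0.92) and Qpct (0.92) for Serpinb6b. Plat was most like Serpinb9b (0.95), Fam135a (0.93) and Idh2 (0.92), and had r = -0.58 with Serpinb2. Serpinb2 was most like Cdca5 (0.95), Melk (0.94) and Car8 (0.92). Plaur was most like Qpct (0.85), Renbp (0.84) and Slc43a1 (0.84), and Serpinb6a was most like Churc1 (0.92), Ifrd1 (0.86) and Prelid2 (0.84).

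The clade B serpins lie in 2 clusters of the mouse genome, with Serpinb2 on chromosome 1 and Serpinb6a and Serpinb6b on chromosome 13. Of the 24 other clade B genes listed, 21 were measured. Depletion after etoposide lowered 2 of the 21, Serpinb9 and Serpinb9b, and raised none (0.868% of all genes were called), with a median change of -0.06 beside 0.02 over all genes. Both are the next listed clade B genes after Serpinb6b in RefSeq order. Serpinb9, an inhibitor of granzyme B, fell by 0.56 (adjusted p = 0.022, limma), and Serpinb9b fell by 0.85 (adjusted p = 5.44e-05). Serpinb1a, an inhibitor of neutrophil serine proteases at the same end of the cluster, differed by -0.45 (adjusted p = 0.048, below 1.4-fold).

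With KK-TAF3 after etoposide 0 of the 21 passed the threshold in limma (3 at an unadjusted p under 0.05). Only 0.406% of all genes were called there, so nothing is read from that count. Serpinb9 differed by 0.50 (adjusted p = 0.101, limma), Serpinb1a by 0.33 (adjusted p = 0.231) and Serpinb9b by 0.19 (adjusted p = 0.358). Serpinb9b stayed 0.65 below undepleted WT-TAF3 cells in KK-TAF3 sh-PIP4K2B cells (adjusted p = 0.00052). At the far end of the cluster, Serpinb6a differed by -0.11 with depletion (95% limits -0.27 to 0.05) and by 0.10 with KK-TAF3 (-0.06 to 0.26). On chromosome 1 none of the measured neighbours of Serpinb2 passed the threshold in either comparison. In differentiated cells 0 of the 21 passed for depletion or for KK-TAF3 in limma (5 and 1 at an unadjusted p under 0.05), with median changes of 0.06 and 0.01. Of all genes, 1.06% and 0.517% were called in these comparisons. The Serpinb9 call with depletion was lost without WT-TAF3 array 1 (-0.56, adjusted p = 0.071), WT-TAF3 array 3 (-0.48, adjusted p = 0.108) or WT-TAF3 sh-PIP4K2B array 2 (-0.42, adjusted p = 0.152), and with only the 2 groups fitted or every row tested (adjusted p = 0.105 and 0.066). Clade B genes of 1 cluster are close in sequence, and whether their probes share signal was not tested.

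**Figure D4:**
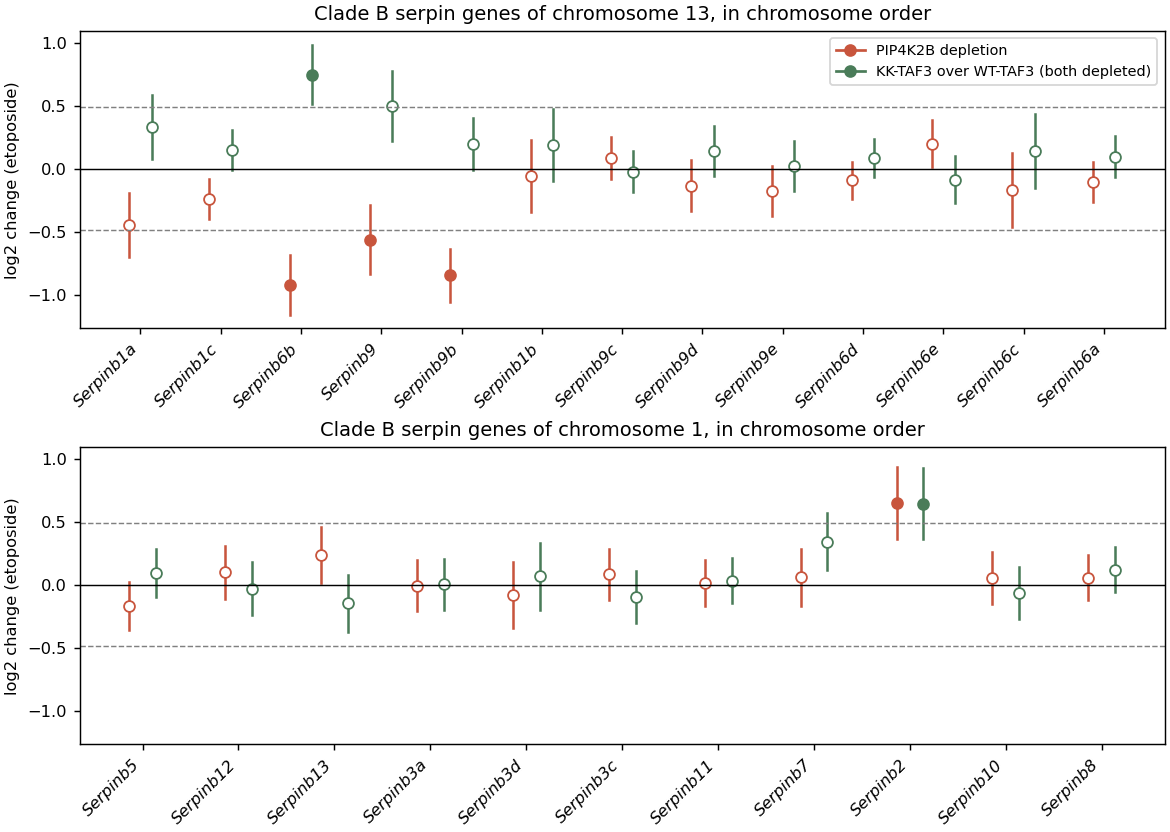
Log2 change after etoposide (y axis) with PIP4K2B depletion (red) and with KK-TAF3 over WT-TAF3 in depleted cells (green) for the measured clade B serpin genes of chromosomes 13 and 1, set in chromosome order (x axis, not to scale). Lines are 95% limits, filled points passed the threshold and dashed lines mark 1.4-fold. Serpinb6b, Serpinb9 and Serpinb9b, next to each other, lie at -0.93, -0.56 and -0.85 with depletion, and Serpinb2 has the only filled points on chromosome 1.

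Among other genes of the plasminogen and fibrinolytic system, 29 of the 35 listed were measured. Of these, 0 passed the threshold in limma with depletion in either treatment, where 1.06% of all genes were called after differentiation and 0.868% after etoposide. At an unadjusted p under 0.05 and no fold limit the counts were 11 after differentiation and 2 after etoposide. The share of all genes at that cut is not given here, so nothing is read from these counts. The median changes were -0.11 after differentiation and 0.02 after etoposide, beside -0.02 and 0.02 over all genes. The array medians lay at 7.35 to 7.41 in undepleted and 7.25 to 7.33 in depleted differentiated WT-TAF3 cells, and their part in this was not tested. KK-TAF3 raised 1 of the 29 after differentiation, Thbd (thrombomodulin, which binds thrombin at the cell surface), by 0.54 (adjusted p = 0.0035, limma), and 0 after etoposide (4 at an unadjusted p under 0.05). Of all genes, 0.517% and 0.406% were called in these 2 comparisons. Thbd had stood 0.46 lower with depletion (adjusted p = 0.0076, below 1.4-fold) and 0.42 lower with depletion after etoposide (adjusted p = 0.014, below 1.4-fold). Its group means were 8.93, 8.47 and 9.01 in differentiated and 8.19, 7.77 and 8.10 in etoposide-treated cells, so the depleted WT-TAF3 cells were lowest in each treatment.

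After etoposide 1 of these 29 genes was higher and 4 were lower than after differentiation in WT-TAF3 cells, with 1 and 6 in WT-TAF3 sh-PIP4K2B cells and 0 and 6 in KK-TAF3 sh-PIP4K2B cells, where 7.63%, 9.95% and 8.33% of all genes were called. Igf2r, a receptor that binds urokinase receptor and plasminogen, changed by -1.15, -1.41 and -1.36 in the 3 genotypes. Mrc2, an endocytic collagen receptor that associates with the urokinase receptor, changed by -0.92, -0.86 and -0.90, and Thbd changed by -0.75, -0.70 and -0.91 (adjusted p of at most 0.00018 for each of these, limma). In the same comparisons Plaur rose.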

How the data were processed

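RNA from 18 C2C12 samples was amplified and hybridised to Affymetrix whole-transcript arrays. The deposited values are log2 signals that the authors made with RMA in Affymetrix Expression Console. The number of arrays limits the precision. The array annotation and RefSeq tables gave gene names: of 35556 rows, 21789 had 1 symbol, 1621 several and 12146 were not listed. The brightest row was kept for each gene (19938 genes, 999 with several rows).

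A fit of 6 group means was made in limma 3.58.1 (R 4.3.3) with moderated variances, 12 residual degrees of freedom and 11 contrasts, and tested on simulated data. The study's methods give p under 0.05 and 1.4-fold and name no adjustment, so Benjamini-Hochberg adjustment over all genes was added. The study describes biological triplicates. Where the labels do not say that arrays came from separate cultures, p-values measure the spread between arrays.

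The genes and lists were chosen with earlier results of these data known. Named list genes were those past the threshold for depletion or KK-TAF3 (at most 6 a list) and the 3 with the largest etoposide change in WT-TAF3. The labels do not say that replicate numbers pair arrays. Deviations of same-numbered arrays from their group means correlated at 0.33 to 0.56 between etoposide-treated WT-TAF3 and WT-TAF3 sh-PIP4K2B cells. There every array correlated best with the array of its own number. Between etoposide-treated WT-TAF3 and KK-TAF3 sh-PIP4K2B cells same-numbered arrays correlated at 0.10 to 0.59. Here WT-TAF3 array 2 correlated at 0.47 with KK-TAF3 array 1 and at 0.10 with KK-TAF3 array 2. In the other 4 pairs of groups same-numbered arrays correlated at -0.29 to 0.48, with 1 or more below 0.1 in each. The numbers are therefore not shown to pair arrays across the groups. Motifs were counted in Python 3.11.15. Alternatives covered the p and fold limits, the groups fitted, the prior, a filter on dim genes, the rows used, scaling, the replicate block over all arrays and, chosen after seeing the data, within each treatment, and leaving out each array.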

Additional observations from a re-analysis of the deposited data

Results flagged for a closer look

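A difference between the treatments in the effect of PIP4K2B depletion, tested as an interaction in limma, singled out 6 of the named genes. The limit was an adjusted p under 0.05, with 1.4-fold also required of the list genes but not of Serpinb6b and Plau. Serpinb9 and Serpinb9b had been named for depletion after etoposide, Serpina6 for depletion after differentiation and Serpinb1a for its etoposide change. Serpinb6b and Plau were chosen with earlier results known. These contrasts share arrays with the interaction, which is therefore no independent evidence here. For Serpinb6b the effect after etoposide minus that after differentiation was -1.07 on the log2 scale (adjusted p = 0.0013), with every depleted WT-TAF3 array above the undepleted arrays after differentiation and below them after etoposide, though the nearest pair after differentiation read 8.28 on both sides. Plau had the same pattern of WT-TAF3 arrays at -0.35 (adjusted p = 0.034), below 1.4-fold. Of the other clade B serpins, Serpinb9 gave -0.91 (adjusted p = 0.014), Serpinb1a gave -0.76 (adjusted p = 0.021) and Serpinb9b gave -0.69 (adjusted p = 0.014). Serpina6 gave -0.88 (adjusted p = 0.012). Outside the rule for naming genes, and named after their values were seen, Hpn of the plasminogen list gave 0.53 (adjusted p = 0.048) and Serpina11 gave 0.70 (adjusted p = 0.034), both in the other direction. Their signals were low, with group means of 6.95 to 7.32 and 6.31 to 6.77, and neither was recomputed under the alternatives. Over all genes, with the 1.4-fold limit required of each, this interaction gave 801 calls (4.02%), and 96 with the array median as a covariate. With the array median as a covariate the adjusted p rose to 0.201 for Serpinb9, 0.188 for Serpinb1a, 0.161 for Serpinb9b and 0.239 for Serpina6. Leaving out 1 array took Serpinb9b past the limit (without WT-TAF3 differentiated array 1, -0.64, adjusted p = 0.0504) and Serpinb1a in 3 cases (-0.63 to -0.74, adjusted p of 0.060 to 0.068). Groups of 3 arrays were too small for a test of single outlying arrays.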

How the results depend on the processing

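Of the changes of the 6 genes recomputed under the alternatives, 1208 kept their direction and side of the threshold, 21 were no longer called, 7 became called and 13 changed sign. Altering only the limits, the prior, the groups fitted, the gene filter, the rows or the block left the size of each change as it was. Direction could therefore not differ in those settings, and many changes were uncalled from the start. The total of 1208 is thus no measure of how firm the changes are. With no fold limit 4 genes in place of 2 were called for depletion after etoposide, 2 in place of 1 between KK-TAF3 sh-PIP4K2B and undepleted WT-TAF3 cells after etoposide, 6 in place of 3 for etoposide in WT-TAF3 cells and 2 in place of 1 for the interaction with depletion. Fitting only the groups compared gave 1 for depletion and 0 for KK-TAF3 after etoposide. The filter at the median signal left Serpinb2 out, giving 1 for depletion, 1 for KK-TAF3 and 0 for KK-TAF3 sh-PIP4K2B against undepleted WT-TAF3 after etoposide, and 1 for the last comparison after differentiation. Testing every row gave 1 for KK-TAF3 after etoposide. After differentiation KK-TAF3 sh-PIP4K2B against undepleted WT-TAF3 cells gave 1 with quantile normalisation within each treatment and 0 with the array median as a covariate. Without single arrays the count was 1 to 2 for depletion after etoposide, for KK-TAF3 after etoposide and for the undepleted comparison after differentiation.

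The changes of sign all concerned uncalled values near 0. They were Serpinb6a with depletion after differentiation (quantile normalisation, -0.035), Plat under etoposide in WT-TAF3 sh-PIP4K2B (quantile normalisation, 0.029, and -0.066 to 0.012 without single arrays) and in KK-TAF3 sh-PIP4K2B cells (median centring, -0.0051), and the Plaur interaction with depletion (quantile normalisation, 0.077). Without single arrays they were also Serpinb6a between KK-TAF3 sh-PIP4K2B and undepleted WT-TAF3 cells after etoposide (-0.073 to 0.046) and the Plaur interaction with KK-TAF3 (-0.073 to 0.028). The cause of these changes was not tested.

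With the replicate block the count of called genes stayed 2 for depletion and 2 for KK-TAF3 after etoposide, and no count of the 6 genes changed. A replicate block within each treatment, chosen after seeing the data, also gave 2 and 2, and changed no call of the 6 genes or of the list genes followed. In 14 of 36 cases an array correlated best with the array of its own number. Counts over all genes ran, over 12 alternatives, from 99 to 628 for depletion after etoposide (173 as reported), from 26 to 179 for KK-TAF3 after etoposide (81), from 140 to 1225 and from 57 to 195 for the same comparisons after differentiation (211 and 103), from 138 to 1727 and from 181 to 617 for KK-TAF3 sh-PIP4K2B against undepleted WT-TAF3 cells after differentiation and etoposide (251 and 230), from 1313 to 4609, from 1451 to 6925 and from 1390 to 5067 for etoposide in the 3 genotypes (1522, 1983 and 1661), and from 96 to 1365 and from 15 to 143 for the interactions with depletion and KK-TAF3 (801 and 30).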

Other observations

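Matrix metalloproteinases, several of which plasmin can activate, and their inhibitors were measured as 21 of 22 listed genes. Depletion lowered Mmp2 (gelatinase A) by 0.61 on the log2 scale after differentiation and by 0.59 after etoposide (adjusted p = 0.00051 and 0.00070, limma). No other gene of the list passed the threshold with depletion, where 1.06% and 0.868% of all genes were called. Mmp2 stood 0.25 and 0.24 higher with KK-TAF3 than with WT-TAF3 in depleted cells (adjusted p = 0.365 and 0.238). Mmp19 was 0.50 higher with KK-TAF3 after differentiation (adjusted p = 0.0023), a change that fell below 1.4-fold without WT-TAF3 sh-PIP4K2B array 1, WT-TAF3 sh-PIP4K2B array 3 or KK-TAF3 array 1 (0.48, 0.45 and 0.48). With KK-TAF3 after etoposide 0 of the 21 passed in limma, with 6 at an unadjusted p under 0.05. Of all genes, 0.517% and 0.406% were called with KK-TAF3 after differentiation and after etoposide. The median change of the list was -0.11 and 0.03 with depletion after differentiation and etoposide, beside -0.02 and 0.02 over all genes. In differentiated WT-TAF3 cells the array medians were also lower with depletion, and their part was not tested. Against differentiation, etoposide-treated WT-TAF3 cells had 2 of these genes higher and 6 lower (7.63% of all genes were called), and Mmp13 (collagenase 3), Mmp3 (stromelysin 1) and Mmp2 changed by -1.51, -1.21 and -0.85.

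Of 23 other serpins listed, 13 were measured. Serpina6, which encodes corticosteroid-binding globulin, changed by -2.53, -3.42 and -3.20 from differentiated to etoposide-treated cells in WT-TAF3, WT-TAF3 sh-PIP4K2B and KK-TAF3 sh-PIP4K2B cells (adjusted p of at most 4.55e-11, limma). No other gene of the list passed the threshold there, where 7.63%, 9.95% and 8.33% of all genes were called. Depletion raised Serpina6 by 0.60 after differentiation (adjusted p = 0.011). This call was lost without WT-TAF3 array 1 (0.51, adjusted p = 0.080), WT-TAF3 array 2 (0.50, adjusted p = 0.070) or WT-TAF3 sh-PIP4K2B array 2 (0.48, adjusted p = 0.080), and with the array median as a covariate (0.48, adjusted p = 0.160). Of the 21 other clade B genes measured, 2 rose after etoposide in WT-TAF3 cells, where 7.63% of all genes were called. They were Serpinb1a, by 0.86, and Serpinb8, by 0.68 (adjusted p of at most 2.59e-05, limma), and Serpinb8 rose in the other genotypes too (0.55 and 0.74). The rise of Serpinb8 in WT-TAF3 sh-PIP4K2B cells fell below 1.4-fold with each array centred on its median (0.47) and without WT-TAF3 sh-PIP4K2B etoposide array 1 (0.48). Serpinb9 was lower after etoposide in WT-TAF3 sh-PIP4K2B and KK-TAF3 sh-PIP4K2B cells, with changes of -1.21 and -0.70 (adjusted p of at most 0.00059, limma).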
